A study of Mus musculus with 6 samples.

Results

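General transcription factors are the proteins that assemble with RNA polymerase at a gene's start and let it begin. Every probe set annotated to a single gene whose symbol is Gtf or Taf followed by a digit, or Tbp, was taken as a member: 57 of the 22626 probe sets tested, for 34 of 12393 named genes. The choice read symbols and no measured value, although the gene family was picked with earlier results on these arrays known, so its counts describe the family and support nothing further. Expression was measured on 6 Affymetrix Mouse430A_2 arrays, chips that read each transcript with a set of short probes (a probe set), 3 for each of 2 cell preparations from the testis of mice carrying CD4HAglo, a human CD4 surface marker driven by a shortened Stra8 promoter. The stem cell arrays (titled spermatogonial stem cells) hold RNA of marker-positive cells isolated with magnetic beads, each preparation pooled from 50 males. The total testicular cell arrays are titled as total cells, while their source text names marker-negative cells of the same transgenic mice. Both groups thus carry the transgene, no treatment is stated, and the ages of the mice and how many contributed to each total preparation are not given in the sources used here. Nothing says whether the 3 arrays of a group came from separate pools, so each p-value measures the spread between these arrays, which may be technical.

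TFIID, the complex of the TATA-binding protein TBP and its associated factors (TAFs), recognises the promoter, and TFIIA and TFIIB steady it there. TFIIF brings in the polymerase, TFIIE joins after it, and TFIIH opens the DNA. RNA polymerase I and III use their own sets, the selectivity factor with TAF1A to TAF1D and the complex TFIIIC. Male germ cells are known for replacing parts of this machinery with testis forms, among them Gtf2a1l for Gtf2a1 and Taf7l for Taf7. Taf4b, Taf9 and Taf9b, also of this kind or paired with such a form, were not analysed here; 3 probe sets annotated to Taf9 together with another gene were left out by the rule.

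The members were mostly lower on the stem cell arrays, by small amounts, and none passed the threshold. The log2 difference (stem cell minus total testicular cell arrays, for the probe set of each gene with the highest mean) was below 0 for 31 of 34 genes, where 57% of all named genes were below 0. Its median over the members was −0.30, which is a 1.23-fold lower level, against −0.05 over all named genes. With limma, at a Benjamini-Hochberg adjusted p under 0.05 over all probe sets, 0 of 34 member genes were called in either direction, where 1.77% of all named genes were (1.63% higher and 0.137% lower). At an unadjusted p under 0.05, 9 members were lower and 0 higher, where 13.1% of all named genes were lower and 11.8% higher at that p. All 3 stem cell values lay below all 3 total testicular cell values for 15 members, where 19.2% of all named genes did so, and lay above them for 0, where 13.8% did. These shares differed with signal level. Among named genes with a mean log2 value of 5 or more, 75.2% were below 0, 33.9% did not overlap and lay lower, and the median was −0.23. The 24 members at that level had 22 below 0, 12 that did not overlap and lay lower, and a median of −0.30, and 6 of the 24 (25.0%) had an unadjusted p under 0.05 with the stem cells lower, near the 22.4% of all genes at that level. That comparison by level was added after seeing the data.

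**Figure D1:**
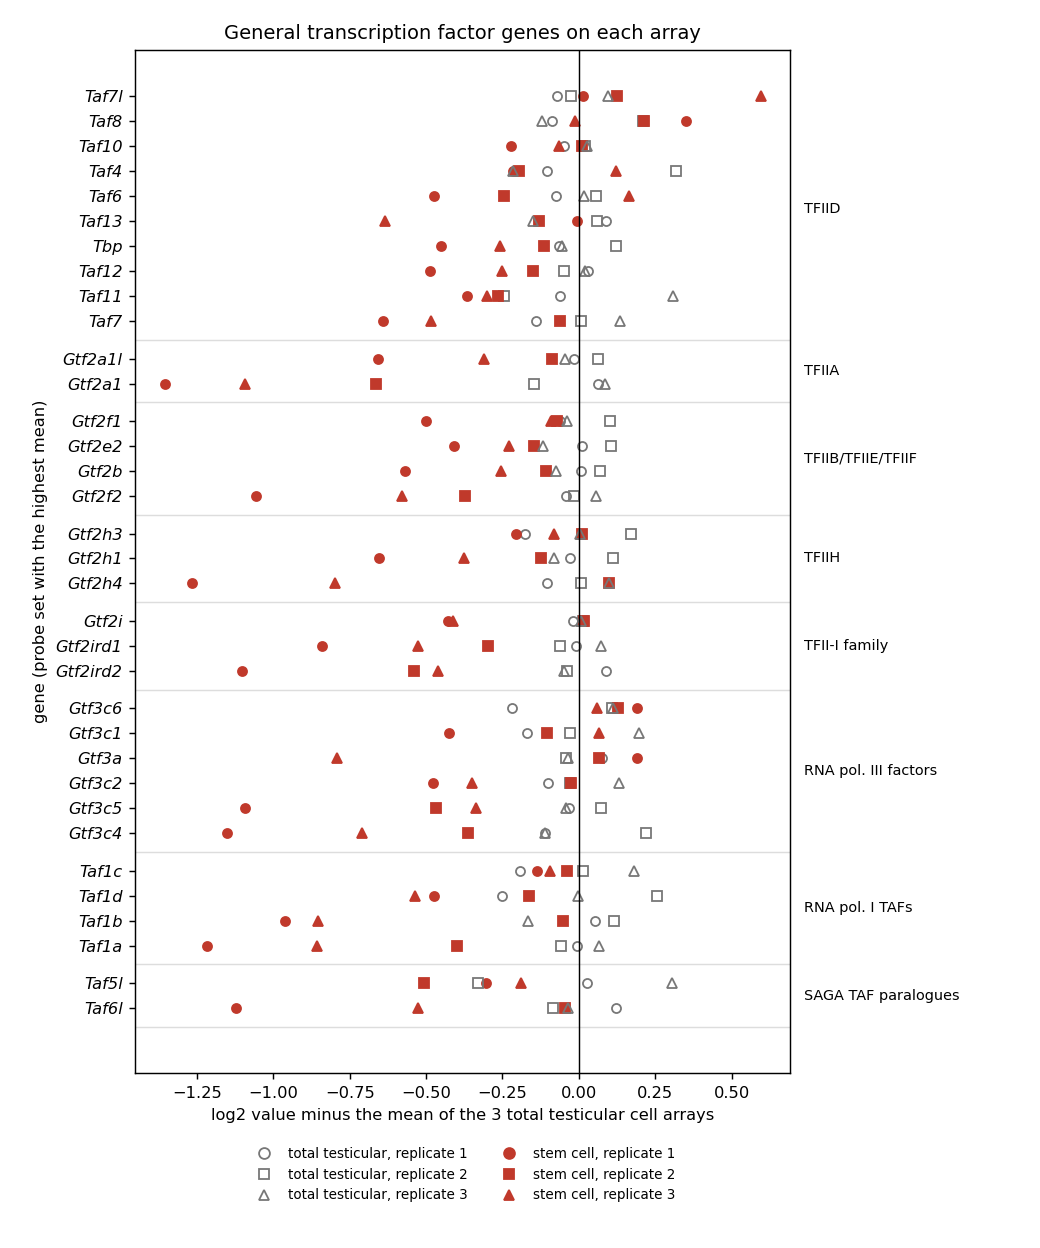
Each point is 1 array's log2 value for 1 member gene minus that gene's mean over the 3 total testicular cell arrays, with genes grouped by role; open grey symbols are total testicular cell arrays, filled red symbols stem cell arrays, and circle, square and triangle are replicates 1, 2 and 3. Most red symbols lie left of 0, with replicate 1 farthest left for most genes, and the genes with a mean difference above 0 are Taf7l, Taf8 and Gtf3c6 (the last at −0.0011 with arrays centred on hybridization controls).

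The 3 stem cell arrays did not share the shift evenly. The median deviation of the members from the total testicular cell mean was −0.48, −0.11 and −0.32 on stem cell arrays 1, 2 and 3. Stem cell replicate 1 was the lowest of all 6 arrays for 26 of 34 members, where it was the lowest for 35.5% of all named genes. At a mean log2 value of 5 or more it was the lowest for 20 of 24 members and for 59.7% of all named genes. It lay below every total testicular cell array for 27 members (79.4%, against 46.1% of all named genes), replicate 3 for 25 (73.5% against 35.8%) and replicate 2 for 17 (50.0% against 40.1%). At a mean log2 value of 5 or more these shares were 83.3%, 79.2% and 58.3% of 24 members for replicates 1, 3 and 2, against 69.8%, 55.2% and 50.2% of all named genes at that level. The spread followed: the SD was larger among stem cell arrays than among total testicular cell arrays for 27 members, with medians of 0.26 and 0.11 (n = 3 each). Without stem cell replicate 1 the members' median was −0.23, with 31 below 0, and that of all named genes was −0.04. At a mean log2 value of 5 or more these medians were −0.20 for members and −0.13 for all named genes. Without stem cell replicate 2 limma called 6 members lower (Gtf2a1, Gtf2f2, Gtf2h4, Gtf3c4, Taf1a and Taf1b) and 4.22% of all named genes, which were 523 against 17 with all arrays. Every stem cell value then lay below every total testicular cell value for 23 members, where it did so for 28.4% of all named genes. The array file headers give a hybridization time and a fluidics module for each array; arrays with times less than 15 minutes apart were taken as 1 round. Within round 1 (stem cell replicate 1 against total replicates 1 and 3) the members' median was −0.48 with 29 below 0, where all named genes had −0.09 and 58.1%. Within round 3 (replicate 2 of each group) it was −0.17 with 26 below 0, where all named genes had −0.05 and 58.8%. Within module 2, which held total replicate 3 and stem cell replicate 2, the members' median of −0.0517 was close to the −0.0482 of all named genes. Of the 34 members 24 were below 0 there, a larger share than the 56.6% of all named genes.

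Markers of other cells also differed between the arrays. All 12 macrophage markers measured were above background on every array, and 11 of 12 were higher on the stem cell arrays by limma. Their mean log2 level was 4.04 to 4.64 on the total testicular cell arrays and 7.53 to 9.36 on the stem cell arrays, highest on replicate 1, the array on which the members were lowest. The 5 Leydig cell markers had mean levels of 5.17 to 6.23 and 6.50 to 8.71, again highest on replicate 1, and 0 of 5 were called (5 higher at an unadjusted p under 0.05). Of 10 markers of undifferentiated spermatogonia, the cells named in the titles, 0 were called and the median difference was −0.08. At an unadjusted p under 0.05, 1 was higher (Itga6, 0.99) and 1 lower (Zbtb16, −0.43). Most of these markers were dim: Cdh1 and Lin28a exceeded background on 0 arrays, and Gfra1, Ret, Sall4 and Thy1 on 5. The median therefore rests largely on values near background. Id4, the brightest at a mean log2 value of 7.72, was lower without overlap (−0.55, limma adjusted p = 0.232). Stra8, whose promoter drives the surface marker, differed by 1.01 (adjusted p = 0.0832). The other markers of differentiating spermatogonia measured, Kit and Dmrtb1, differed by 0.16 and −0.18, both with overlap. Of 8 Sertoli cell markers 1 was called, Clu, which was higher by 2.02 (adjusted p = 0.0234), and their median difference was 0.19. At an unadjusted p under 0.05, 2 were higher and 0 lower, the second being Amhr2 (0.79, limma adjusted p = 0.0844, without overlap). The 7 spermatocyte markers had mean levels of 7.43 to 7.55 and 7.00 to 7.44, with 0 called. At an unadjusted p under 0.05, 3 were lower and 1 higher (Dmc1, 0.46, without overlap). The 8 markers of round and elongating spermatids were bright in both groups, at mean levels of 10.82 to 11.09 and 10.64 to 10.99. All 8 differences were below 0, with a median of −0.14, and 0 were called, also at an unadjusted p under 0.05. In bulk RNA, fewer cells of a type and less RNA per cell cannot be told apart, and the part of these markers in the members' values was not tested. Mean log2 values of the 9 hybridization control probe sets were 8.09 to 8.26 for total testicular cells, and 8.69, 8.13 and 8.13 for stem cell replicates 1, 2 and 3. The 3′ minus 5′ log2 signal of actin, a check of RNA integrity, ran from 0.24 to 0.45 and from 0.41 to 0.58 in the groups. That of Gapdh was −0.10, −0.19 and −0.04 for total testicular cells, and −0.45, −0.43 and 0.09 for stem cells.

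The TFIIA genes stand for the exchange of a general subunit for a germ cell one, so the bases before their starts are shown with those of Tbp, which encodes the promoter-binding subunit of TFIID, and Taf7l, the X-linked testis relative of Taf7 and a member that differed in the other direction. Each line gives the 250 bases before an annotated start in RefSeq (GRCm38.p6), on the strand of the gene, with GC boxes (GGGCGG) and TATA boxes (TATAAA), read on both strands, in capitals. Tbp lies at chr17:15499638-15499887 (plus strand), Gtf2a1 at chr12:91590488-91590737 (minus), Gtf2a1l at chr17:88668410-88668659 (plus, a start inside the gene's annotated range) and Taf7l at chrX:134476491-134476740 (minus).
Tbp: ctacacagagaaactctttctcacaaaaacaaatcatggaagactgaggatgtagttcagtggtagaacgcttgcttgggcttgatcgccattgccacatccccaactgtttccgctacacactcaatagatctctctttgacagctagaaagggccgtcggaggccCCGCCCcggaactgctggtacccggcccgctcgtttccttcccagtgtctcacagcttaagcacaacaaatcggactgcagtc
Gtf2a1: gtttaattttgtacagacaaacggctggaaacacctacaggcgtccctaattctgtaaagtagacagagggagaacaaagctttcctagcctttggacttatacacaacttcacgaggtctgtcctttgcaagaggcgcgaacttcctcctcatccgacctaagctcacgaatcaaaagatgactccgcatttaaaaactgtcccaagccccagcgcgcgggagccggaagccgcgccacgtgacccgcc
Gtf2a1l: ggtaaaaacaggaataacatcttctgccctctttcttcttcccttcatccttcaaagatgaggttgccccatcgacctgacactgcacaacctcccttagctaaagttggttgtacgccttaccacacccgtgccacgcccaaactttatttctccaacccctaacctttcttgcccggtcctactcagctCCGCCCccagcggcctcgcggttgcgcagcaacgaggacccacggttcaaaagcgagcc
Taf7l: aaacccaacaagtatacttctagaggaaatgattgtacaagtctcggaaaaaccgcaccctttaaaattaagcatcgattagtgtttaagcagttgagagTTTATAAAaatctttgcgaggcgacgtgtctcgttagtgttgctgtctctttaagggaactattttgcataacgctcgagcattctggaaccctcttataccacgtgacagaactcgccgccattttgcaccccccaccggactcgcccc

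Of these windows, Tbp and Gtf2a1l each hold a GC box, the binding sequence of Sp1-type factors, starting 83 and 59 bases before the start. The Taf7l window holds overlapping TATAAA matches on the 2 strands, well before the start, and the Gtf2a1 window holds neither motif. Windows were found for 32 of the 34 members, 39 windows in all. TATAAA occurred in 15.4% of them and in 12.4% of 32851 RefSeq windows of that length, and GGGCGG in 46.2% against 32.7%. CCAAT occurred in 33.3% against 33.9%. TGACGTCA, the cyclic AMP response element to which CREM binds in spermatids, occurred in 3 member windows (Gtf2f1, Gtf3c1 and Taf11), 7.69% against 1.55%, and its first bases, TGACG, which that element contains, in 30.8% against 17.8%. The median number of CG dinucleotides was 17 in member windows and 6 in all windows. A match is a description of letters only.

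In TFIID, Tbp had log2 values of 8.29, 8.47 and 8.30 in total testicular cells, against 7.90, 8.24 and 8.10 in stem cells. All 3 stem cell values lay below the others, yet the log2 difference of −0.27 ± 0.14 (SE, limma adjusted p = 0.279) did not pass. Its other probe set, near background, differed by −0.02. Of the 10 TFIID genes measured, 8 differences were below 0 and 0 genes passed by limma, also at an unadjusted p under 0.05 (median −0.22). Besides Tbp, the groups did not overlap for Taf12 (−0.30, adjusted p = 0.277), which pairs with TAF4 through a histone fold, and for Taf11 (−0.31, adjusted p = 0.343), which pairs with TAF13. Taf10, a subunit shared by TFIID and the coactivator SAGA, had nearly level values of 9.02, 9.09 and 9.09 in total testicular cells, against 8.85, 9.08 and 9.0 in stem cells. Its difference was −0.09 ± 0.12 (SE, limma adjusted p = 0.682), with −0.67 on its dimmer probe set.

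Taf7 and Taf7l, whose proteins occupy the same place in TFIID, gave differences of opposite sign. Taf7 had log2 values of 4.93, 5.08 and 5.20 in total testicular cells, against 4.43, 5.01 and 4.59 in stem cells. Its stem cell replicates 1 and 3 lay below all total testicular cell arrays and replicate 2 lay among them, with a difference of −0.40 ± 0.20 (SE, limma adjusted p = 0.269). Its second probe set gave −0.60. Taf7l had values of 4.81, 4.86 and 4.98 in total testicular cells, against 4.89, 5.0 and 5.48 in stem cells. Only replicate 3 of the stem cells stood clearly above the rest, the groups overlapped, and the difference was 0.24 ± 0.20 (SE, limma adjusted p = 0.488). Whether the paralogues differ from each other was not tested. Taf4, the scaffold whose relative Taf4b is known from germ cells, differed by −0.10 (adjusted p = 0.810), and by 0.11 on a probe set near background. Taf8, the partner of TAF10, was at 2.39, 2.69 and 2.36 in total testicular cells, against 2.83, 2.69 and 2.47 in stem cells, close to background, which it exceeded on 5 of 6 arrays; its difference was 0.18 (adjusted p = 0.503).

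TFIIA held the lowest difference when each gene was read by its brightest probe set. Gtf2a1, which encodes the precursor of the large TFIIA subunits, had log2 values of 4.89, 4.68 and 4.91 in total testicular cells, against 3.47, 4.16 and 3.73 in stem cells. The 3 stem cell values lay 0.5 or more below every total testicular cell value, a 2.05-fold lower mean, with a difference of −1.04 ± 0.21 (SE, limma adjusted p = 0.0513). That is just above the threshold, and the rest of the gene's probe sets gave smaller differences of −0.13 and −0.05, the latter near background. Gtf2a1 passed without stem cell replicate 2 (−1.22, adjusted p = 0.0243) or 3 (−1.01, adjusted p = 0.0403), with each array centred on its median (−1.15, adjusted p = 0.0403) and with array weights (−0.98, adjusted p = 0.0234) and, chosen after seeing the data, with arrays centred on the hybridization controls (−1.16, adjusted p = 0.00627). Over all alternatives its adjusted p ran from 0.00627 to 0.689, the highest with the median probe set. Gtf2a1l, which encodes the germ cell form of that precursor, was bright on every array, at 9.95, 10.03 and 9.92 in total testicular cells, against 9.31, 9.88 and 9.66 in stem cells. Its groups did not overlap, with a difference of −0.35 ± 0.15 (SE, limma adjusted p = 0.196), a 1.28-fold lower mean.

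Read by their brightest probe sets, all 4 measured genes of TFIIB, TFIIE and TFIIF were lower on every stem cell array than on every total testicular cell array. Of all named genes 19.2% did so, and 33.9% of those with a mean log2 value of 5 or more, where these 4 lie. By limma 0 of the 4 were called (1 at an unadjusted p under 0.05). Gtf2f2, the small TFIIF subunit, had values of 7.22, 7.25 and 7.32 in total testicular cells, against 6.20, 6.89 and 6.68 in stem cells. Its difference was −0.67 ± 0.19 (SE, limma adjusted p = 0.101). Leaving out stem cell replicate 2 brought it past the threshold (−0.82, adjusted p = 0.0433; 0.0433 to 0.330 over all alternatives). Gtf2f1, the large TFIIF subunit, differed by only −0.22 (adjusted p = 0.401). Its other probe set, nearly as bright, gave −0.48 but overlapped. Gtf2b, the gene of TFIIB, which links TBP to the polymerase, was at 8.40, 8.46 and 8.32 in total testicular cells, against 7.83, 8.29 and 8.14 in stem cells and differed by −0.31 (adjusted p = 0.254). Gtf2e2, the beta subunit of TFIIE, was at 9.23, 9.32 and 9.10 in total testicular cells, against 8.81, 9.07 and 8.99 in stem cells, a difference of −0.26 (adjusted p = 0.251). In this group the non-overlap came with differences of 0.31 or less in size for 3 of the 4 genes.

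In TFIIH, which opens DNA at promoters and at sites of repair, 3 core subunits were measured and 0 passed, also at an unadjusted p under 0.05. Gtf2h4, which anchors the XPB helicase, had values of 6.31, 6.42 and 6.51 in total testicular cells, against 5.15, 6.51 and 5.62 in stem cells. Stem cell replicate 2 equalled the highest total testicular cell value while replicates 1 and 3 lay well below, so that the difference of −0.66 had an SE of 0.31 (adjusted p = 0.232). Without stem cell replicate 2 it was −1.03 (adjusted p = 0.0330; 0.0330 to 1.00 over all alternatives). Its other probe sets gave −0.80, −0.41 and −0.14. Gtf2h1 did not overlap (−0.39, adjusted p = 0.219), and Gtf2h3 was nearly level at −0.09.

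**Figure D2:**
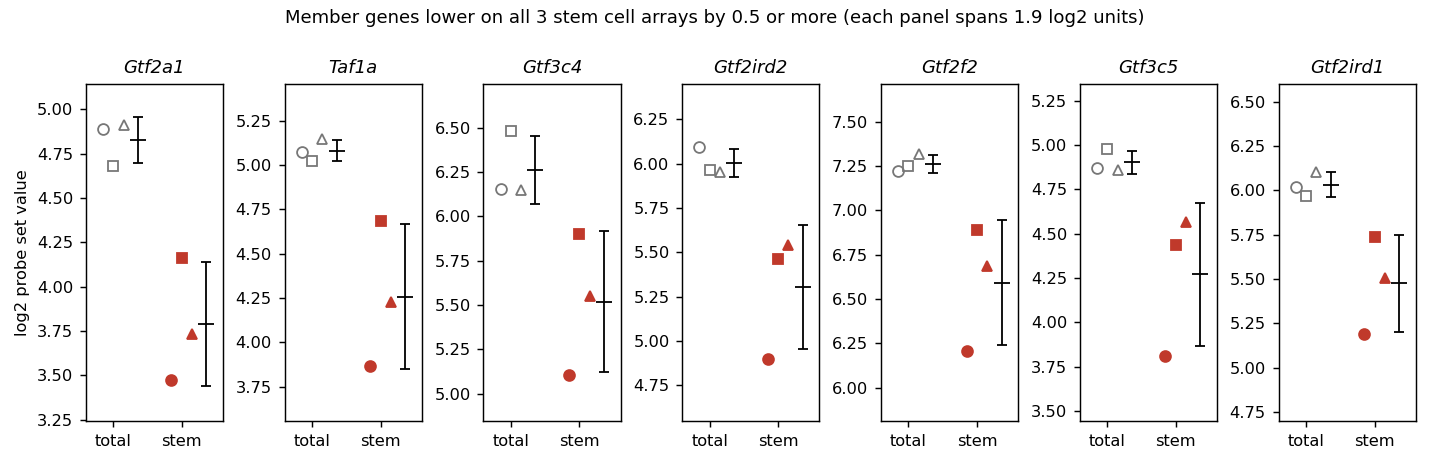
The 7 member genes with non-overlapping groups and a difference of at least 0.5 in size: log2 values on the 3 total testicular cell arrays (open grey) and the 3 stem cell arrays (filled red), circle, square and triangle for replicates 1, 2 and 3, and a bar for the mean ± SD (n = 3). In every panel replicate 1 is the lowest stem cell array, and the red points spread more widely than the grey ones.

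The TFII-I family, signal-responsive DNA-binding proteins with shared repeats whose human genes lie in or beside the region deleted in Williams syndrome, had all 3 differences below 0, with 0 called by limma and 2 lower at an unadjusted p under 0.05. Gtf2ird2 had values of 6.09, 5.96 and 5.95 in total testicular cells, against 4.90, 5.46 and 5.54 in stem cells. The groups did not overlap and the difference was −0.70 ± 0.20 (SE, limma adjusted p = 0.103). Gtf2ird1 was at 6.02, 5.97 and 6.11 in total testicular cells, against 5.19, 5.74 and 5.50 in stem cells, likewise without overlap, a difference of −0.56 (adjusted p = 0.130). Its second, dimmer probe set gave 0.22. Gtf2i itself had values of 7.98, 8.01 and 8.01 in total testicular cells, against 7.57, 8.02 and 7.59 in stem cells: replicate 2 of the stem cells matched the total testicular cells, whereas 1 and 3 lay below. Its difference was −0.27 (adjusted p = 0.324), and its other 3 probe sets gave −0.42, −0.32 and −1.04, the last with adjusted p = 0.0777.

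RNA polymerase III factors were mixed. TFIIIC binds inside transfer RNA genes, and its subunit Gtf3c4 had values of 6.15, 6.48 and 6.15 in total testicular cells, against 5.11, 5.90 and 5.55 in stem cells. Its groups did not overlap and the difference was −0.74 ± 0.23 (SE, limma adjusted p = 0.109). Gtf3c5, another subunit, had values of 4.87, 4.98 and 4.86 in total testicular cells, against 3.81, 4.44 and 4.57 in stem cells, likewise without overlap, a difference of −0.63 (adjusted p = 0.143). Without stem cell replicate 2, Gtf3c4 passed (−0.93, adjusted p = 0.0433; 0.0433 to 0.627 over all alternatives). Gtf3c6 was at 5.07, 5.40 and 5.40 in total testicular cells, against 5.48, 5.42 and 5.35 in stem cells, overlapping, a difference of 0.13, which was −0.0011 with arrays centred on hybridization controls. Its dim probe set gave −0.30. Gtf3c1 (−0.15), Gtf3c2 (−0.28) and Gtf3a (−0.18), the factor for the small ribosomal RNA genes transcribed by this polymerase, overlapped as well. A second probe set of Gtf3c2, nearly as bright, did not overlap and gave −0.53 (adjusted p = 0.112). Of these 6 genes, 0 passed, and for 2 the unadjusted p was under 0.05 with the stem cells lower.

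Among the TAFs of RNA polymerase I, which transcribes the large ribosomal RNA precursor, Taf1a had values of 5.07, 5.02 and 5.15 in total testicular cells, against 3.86, 4.68 and 4.23 in stem cells. Its groups did not overlap and the difference was −0.82 ± 0.22 (SE, limma adjusted p = 0.0907); without stem cell replicate 2 it passed (−1.04, adjusted p = 0.0317; 0.0317 to 0.332 over all alternatives). Taf1b had values of 6.72, 6.79 and 6.51 in total testicular cells, against 5.71, 6.62 and 5.82 in stem cells, with replicate 2 of the stem cells again among the total testicular cell values, and differed by −0.62 (adjusted p = 0.173). Taf1c was at 3.72, 3.92 and 4.09 in total testicular cells, against 3.78, 3.87 and 3.82 in stem cells and differed by −0.09. Taf1d differed by −0.39, while its other 4 probe sets lay between −0.18 and −0.02. Of these 4 genes limma called 0, with 2 lower at an unadjusted p under 0.05. Taf6l, the form of TAF6 found in SAGA, had values of 5.59, 5.38 and 5.43 in total testicular cells, against 4.35, 5.42 and 4.94 in stem cells, with stem cell replicate 2 among the total testicular cells. It (−0.56, adjusted p = 0.229) and its partner Taf5l (−0.33, adjusted p = 0.356) both overlapped.

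**Figure D3:**
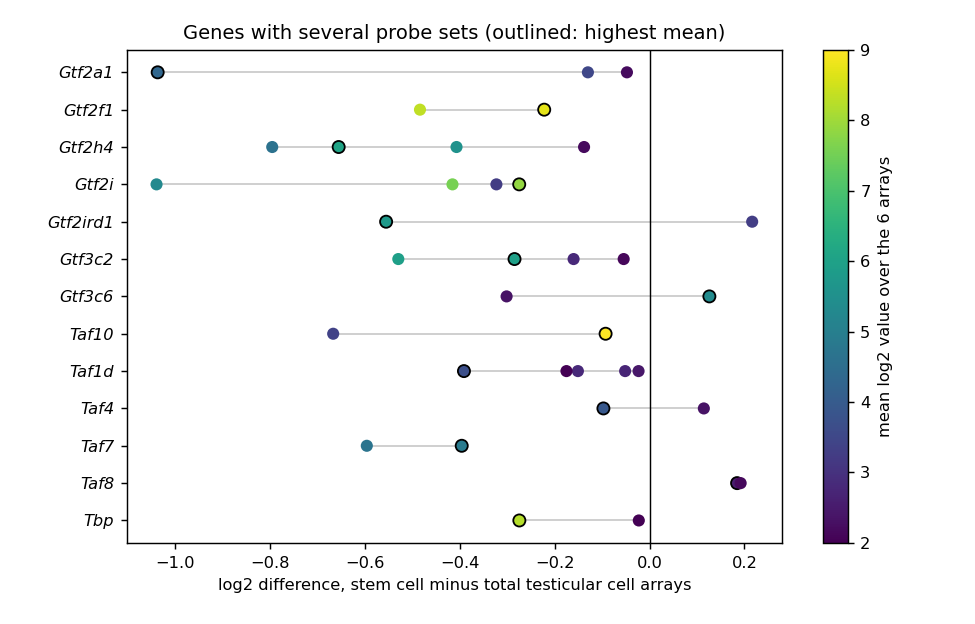
Log2 difference (stem cell minus total testicular cell arrays) of every probe set of the 13 member genes that have several; colour is the mean log2 value over the 6 arrays and a black outline marks the probe set with the highest mean. All probe sets are below 0 for 9 of the 13 genes, both signs occur for Gtf2ird1, Gtf3c6 and Taf4, and the probe sets of Gtf2a1 run from −1.04 to −0.05.

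Over all 57 member probe sets, 51 differences were below 0 and 6 above, with a median of −0.28, where 54.9% of all tested probe sets were below 0 and their median was −0.03. By limma 0 passed, with 17 lower at an unadjusted p under 0.05, as were 12.1% of all tested probe sets. The groups of 25 did not overlap with the stem cells lower (17.5% of all tested probe sets), and those of 2 with the stem cells higher (13.5%). In all, 47 probe sets were above background on all 6 arrays and 2 on none.

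Most core subunits of the polymerase that these factors serve had differences above 0. Of 10 measured core subunits of RNA polymerase II, 3 differences were below 0, where 57% of all named genes were, and the median was 0.16. The groups of 3 (Polr2b, Polr2d and Polr2g) did not overlap with the stem cells higher, as for 13.8% of all named genes. Their differences were small, at 0.14, 0.34 and 0.20 (limma adjusted p = 0.585, 0.270 and 0.434). Polr2a, the largest subunit, had values of 4.67, 4.33 and 4.67 in total testicular cells, against 4.87, 4.60 and 5.15 in stem cells, a difference of 0.31 (adjusted p = 0.381). On stem cell arrays 1, 2 and 3 the median deviation was 0.24, 0.14 and 0.04. By this median replicate 1 was the highest for these genes, whereas it was the lowest for the members. The mean log2 level of the 10 subunits was 6.29, 6.38 and 6.22 on these arrays, highest on replicate 2. The difference between these lists was not tested. By limma 0 of the 10 were called, with 0 at an unadjusted p under 0.05.

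Other lists of transcription genes had medians below 0, like the members. The median of the elongation factors lay nearer to that of all named genes than to that of the members. Mediator, the bridge between activators and the polymerase, had 24 of 28 genes below 0, a median of −0.20 and 5 lower at an unadjusted p under 0.05. SAGA and related coactivators had 9 of 11 below 0 (median −0.30, 3 lower at that p), and elongation factors 12 of 15 (median −0.11, 1 lower). No gene of these 3 lists passed by limma. Of all named genes 57% were below 0 (median −0.05, 13.1% lower at that p). At a mean log2 value of 5 or more these were 75.2%, −0.23 and 22.4%, so the Mediator median was no lower than that of all genes at that level. On stem cell arrays 1, 2 and 3 the Mediator median was −0.47, −0.04 and −0.08, so replicate 3, low for the members, was near the total testicular cells for Mediator. Of the TBP relatives and regulators, Tbpl1, needed for spermatid development, was at 10.60, 10.62 and 10.48 in total testicular cells, against 10.10, 10.52 and 10.33 in stem cells and differed by −0.25 (adjusted p = 0.268). Dr1 differed by −0.57 (adjusted p = 0.113) and Drap1 by −0.27, the subunits of a complex that represses TBP, both without overlap. Tbpl2 was not analysed here.

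The partners of TFIIH outside the name rule had 4 of 5 differences below 0 (median −0.21), among them Cdk7, the kinase of the complex, at 5.93, 6.15 and 6.23 in total testicular cells, against 5.82, 5.77 and 5.79 in stem cells (−0.31, adjusted p = 0.280, without overlap). RNA polymerase I genes had 5 of 7 below 0 (median −0.22), with Ubtf, the factor that opens ribosomal DNA, higher without overlap (0.70, adjusted p = 0.0806), against Taf1a and Taf1b in the same pathway. RNA polymerase III initiation genes had 2 of 3 below 0 (median −0.06). The testis partners Crem (−0.44), Fhl5 (−0.17), Kif17 and Rfx2 had all 4 below 0 (median −0.22). None of the genes of these lists was called by limma; at an unadjusted p under 0.05 the TBP list had 1 lower, the RNA polymerase I list 1 lower and 1 higher, and the others 0.

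**Figure D4:**
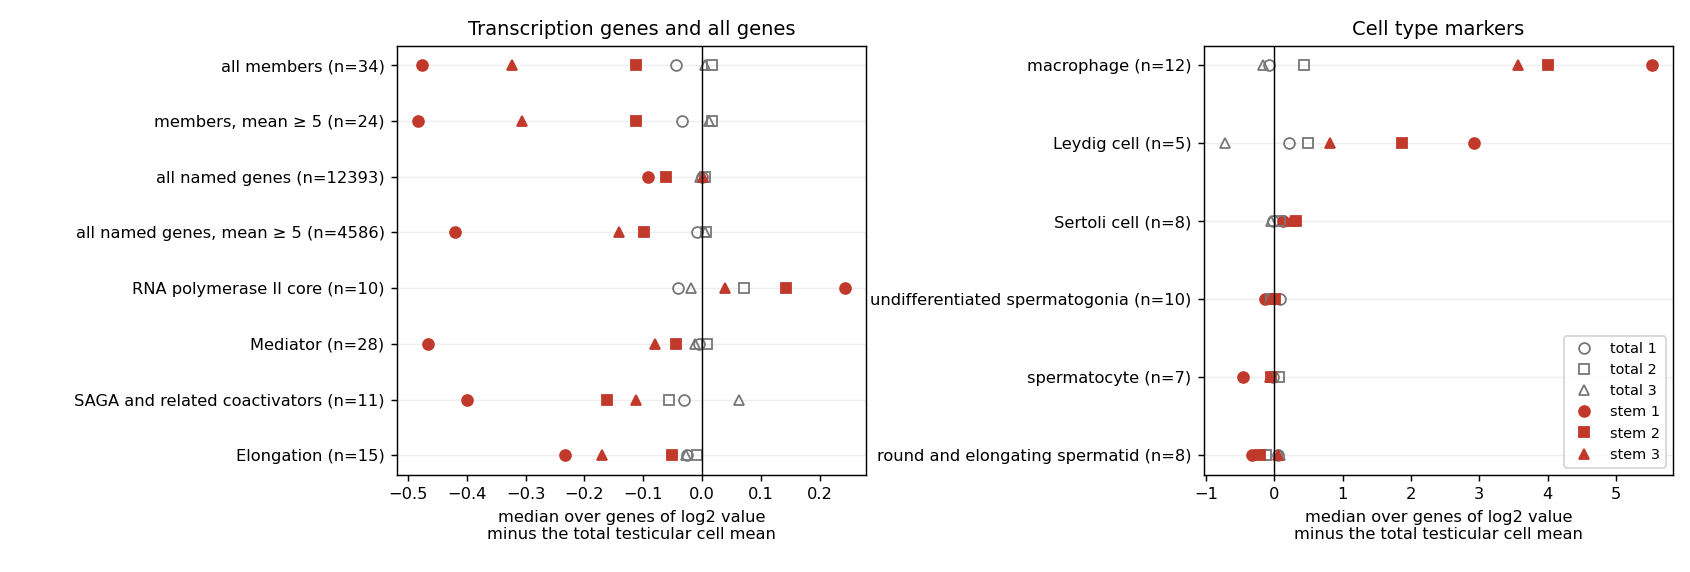
Median over the genes of each list of the log2 value minus the total testicular cell mean, on each array; left, the members, all named genes and lists of transcription genes, right, cell type markers on a wider scale (open grey, total testicular cell arrays; filled red, stem cell arrays; circle, square and triangle, replicates 1, 2 and 3). Stem cell replicate 1 is lowest for the members at −0.48 and highest for the macrophage markers at 5.52.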

How the data were processed

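Total RNA of 6 samples was hybridised to 1 array each. The values are log2 probe set summaries deposited by the authors; MAS5 and RMA appear in the submitters' processing notes, but neither note says what it was used for, and how the values were normalized stays unknown. Groups and replicate numbers came from the titles. Of 22690 probe sets, 64 controls were left out. The annotation gave 1 gene for 20380 of the rest, several for 691 and no gene for 1555. A gene was represented by its probe set with the highest mean. Groups were compared with limma 3.58.1 in R 4.3.3 (lmFit, eBayes with an intensity trend, two-sided, Benjamini-Hochberg over all probe sets, threshold 0.05). Background, in place of depth, was each array's 95th percentile of 27 bacterial control probe sets. Rounds were arrays whose header times lay less than 15 minutes apart. Members and lists were chosen with earlier results of these data known. Named genes were Tbp and the paralogue pairs, members past the threshold, the highest and lowest difference in each role group, those without overlap differing by 0.5 or more, those whose probe sets had opposite signs and spanned at least 1, the 3 highest and 3 lowest means and, of the other lists, Tbpl1, Polr2a, Cdk7, Crem, Fhl5 and genes past the threshold; genes outside this rule were named after their values were seen. Gene names of the 34 members matched the RefSeq table. The fit was tested on simulated data. Alternatives were other scalings, a filter on dim probe sets, blocks, no trend, array weights, other probe set choices, other thresholds and leaving out each array.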

Additional observations from a re-analysis of the deposited data

How the results depend on the processing

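Over the alternatives run, the members' median difference stayed below 0, from −0.43 to −0.0517, the latter with the fluidics module as a block, which compares only total replicate 3 with stem cell replicate 2. That block gave −0.0074 for the TFIIH partners and −0.23 for RNA polymerase III initiation, and turned Taf4 (0.0187), Gtf2i (0.0104) and Gtf2h3 (0.0071). Median centring moved the median of all named genes to −0.17 and the members' to −0.41, centring on hybridization controls to −0.18 and −0.43; such centring moves all genes alike. The members' median minus that of all named genes was −0.25 as reported, −0.18 with quantile normalization and −0.0034 with the module block. Called lower were 0 members, 1 with median centring, array weights, the replicate block or hybridization control centring, 2 at a threshold of 0.1, and from 0 to 6 leaving out 1 array. In the same order all named genes called lower numbered 17, then 46, 79, 93 and 147, then 218, and from 0 to 523. The members lower without overlap were 15, where 19.2% of all named genes were. They were 9 with hybridization control centring and from 15 to 23 leaving out 1 array. The 23 came without stem cell replicate 2, where 28.4% of all named genes were lower without overlap. Members higher without overlap were 0 to 2. The share over all named genes is not given for the other settings, so these counts are not read as a result about the members. Median centring gave 0.052 for RNA polymerase II core and −0.22 for elongation, hybridization control centring 0.0361 and −0.24, with −0.19 for RNA polymerase III initiation, and the round block −0.22 for elongation. RNA polymerase III initiation was 0.089 with the filter on dim probe sets and −0.23 with the median probe set. SAGA had 1 gene called with the replicate block and 1 with the round block. Leaving out 1 array gave from 0 to 1 called for SAGA and for TBP relatives, 0 to 2 for Mediator, and medians from −0.25 to −0.0839 for elongation. Gtf3c6 turned to −0.0876 with the mean of its probe sets, −0.30 with the median one and −0.0011 with hybridization control centring, and Taf4 to 0.0087 with the mean, and leaving out 1 array gave Taf4 from −0.2064 to 0.0623, the latter without total testicular replicate 2. Deviations of same-numbered arrays from their group means had correlations of −0.01, 0.01 and 0.30, and those of differently numbered arrays ran from −0.35 to 0.30. With 3 arrays per group these values cannot show whether the numbers pair the samples, and the titles do not say. The replicate block in limma called 1 member (Gtf2a1, adjusted p = 0.0337) against 0. The module block, hybridization control centring and the comparison by level were chosen after seeing the data. Signal near background limits Taf8 and the dimmer probe sets.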
